A study of Mus musculus with 30 samples.

Results

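The CXC chemokines described here are 8 genes, *Cxcl1*, *Cxcl2*, *Cxcl5*, *Cxcl9*, *Cxcl10*, *Cxcl12*, *Cxcl13* and *Cxcl16*, chosen by name and followed in every group and both RNA fractions of a mouse model of postoperative ileus, out of 28586 genes listed in either fraction. Postoperative ileus is the transient loss of gut motility after abdominal surgery, modelled in young adult male mice by intestinal manipulation (IM) of the small bowel. The muscularis externa (*ME*), the muscle layer with its nerve plexus, came from naïve mice or from mice killed 3 h (IM3h), 24 h (IM24h) or 72 h (IM72h) following the operation. Total RNA of the lysate had 3 naïve, 3 IM3h, 4 IM24h and 4 IM72h libraries. The *RiboTag* fraction, mRNA pulled down with HA-tagged ribosomes, had 3 naïve libraries and 4 at each time after IM, where the labels list 4 naïve samples.

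All mice carried the HA-tagged ribosomal protein allele of B6N.129 Rpl22tm1.1Psam/J, which is expressed in cells with Cre activity. Cre came from the tamoxifen-inducible transgene B6 Tg(Sox10-icre/ERT2)388Wdr/J, active in *Sox10*-expressing enteric glia, in every *RiboTag* group and in total *ME* RNA at IM24h and IM72h. For total *ME* RNA of naïve and IM3h mice the labels name B6.Cg-Tg73.12Mvs/J(Gfap-cre), driven by the *Gfap* promoter. The study's methods describe the *Sox10* line, so labels and methods differ for these groups. If the labels hold, mouse line and time cannot be told apart in total *ME* RNA in any comparison of IM24h or IM72h with naïve or IM3h mice.

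CXC chemokines are small secreted proteins that guide leukocytes through G protein-coupled receptors. CXCL1, CXCL2 and CXCL5 act on CXCR2 and draw neutrophils, which enter the *ME* after bowel surgery. CXCL9 and CXCL10 are induced by interferons and act on CXCR3 of T cells and NK cells. CXCL12 is a homeostatic ligand of CXCR4 and ACKR3, CXCL13 guides B cells through CXCR5, and CXCL16 is made as a membrane protein that binds CXCR6 and can be shed by ADAM10.

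Of the 8 genes, 6 lie on chromosome 5 of mm10 in the GENCODE annotation. *Cxcl5* (90759360 to 90761624), *Cxcl1* (90891241 to 90893115) and *Cxcl2* (90903871 to 90905938) follow each other on the plus strand. *Cxcl9* (92321347 to 92328079) and *Cxcl10* (92346638 to 92348889) are neighbours on the minus strand, and *Cxcl13* (95956951 to 95961068) lies on the plus strand. *Cxcl12* is on chromosome 6 (117168535 to 117181367, plus strand) and *Cxcl16* on chromosome 11 (70453983 to 70459984, minus strand).

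The 250 bases before the RefSeq start (GRCm38.p6) were searched in the 6 members with a promoter entry, *Cxcl1*, *Cxcl2*, *Cxcl9*, *Cxcl10*, *Cxcl12* and *Cxcl13*. The κB-type motif, GGG followed by any 3 bases and TTCC, bound by NF-κB, occurs on either strand in 4.65% of 32851 promoters, and the ISRE-type motif, GAAA then any 2 bases and again GAAA, bound by interferon regulatory factors, in 2.98%. Only *Cxcl1*, *Cxcl2* and *Cxcl10* of these 6 held a match. Their stretches from 220 to 31 bases before the start are shown because 3 κB-type matches lie close together in *Cxcl1* and in *Cxcl2*, some overlapping on opposite strands, and because *Cxcl10* holds both motifs. Matches are in capitals, read 5′ to 3′ on the strand of the gene.
*Cxcl1*, chr5:90891025-90891214, plus strand: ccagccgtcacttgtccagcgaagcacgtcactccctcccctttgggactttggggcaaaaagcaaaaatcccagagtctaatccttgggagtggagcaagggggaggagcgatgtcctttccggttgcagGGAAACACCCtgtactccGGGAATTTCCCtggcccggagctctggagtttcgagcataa
*Cxcl2*, chr5:90903679-90903868, plus strand: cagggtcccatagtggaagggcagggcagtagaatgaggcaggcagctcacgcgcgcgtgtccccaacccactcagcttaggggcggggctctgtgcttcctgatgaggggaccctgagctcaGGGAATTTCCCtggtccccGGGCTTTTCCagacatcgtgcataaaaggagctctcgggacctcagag
*Cxcl10*, chr5:92348920-92349109, minus strand: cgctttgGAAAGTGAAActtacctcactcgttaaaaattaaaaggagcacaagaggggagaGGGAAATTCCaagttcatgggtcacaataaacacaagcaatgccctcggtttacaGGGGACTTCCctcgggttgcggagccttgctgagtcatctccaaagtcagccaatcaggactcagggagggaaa
The map of matches shows their distance from the start. A match is a run of letters, not a site at which binding was measured. Variants of these motifs were not searched, so a promoter without a match can still hold a similar sequence.

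**Figure D1:**
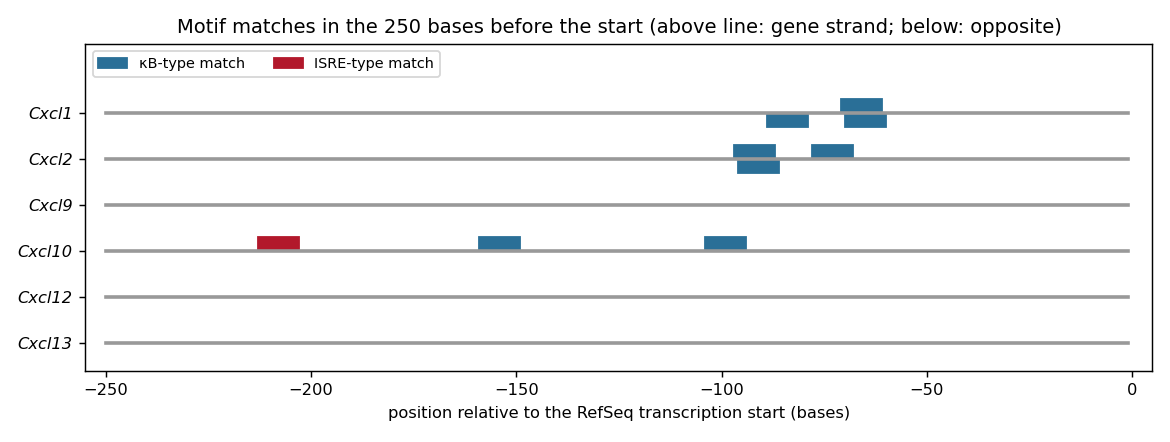
Positions of κB-type (blue) and ISRE-type (red) matches in the 250 bases before the RefSeq start of the 6 members with a promoter entry, with boxes above the line on the strand of the gene and below it on the opposite strand. The x axis is the distance from the start in bases; *Cxcl1* and *Cxcl2* hold 3 κB-type matches each, and *Cxcl10* holds 2 with 1 ISRE-type match.

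Values below are estimated counts per library, or CPM, the count relative to the TMM-scaled library total, as mean ± SD. Libraries held 3010306 to 12866062 counts. In *RiboTag* libraries the share of AY036118, a transcript inside an rRNA gene, was 2.02% to 14.0% in naïve and IM3h mice, 22.2% to 59.2% at IM24h and 58.0% to 80.1% at IM72h, and 3 counts stood for up to 2.87 CPM at IM72h against 0.379 CPM in naïve mice. In total *ME* RNA that share was 16.1% to 33.5% in naïve and IM3h mice and 1.33% to 6.50% later. Tests are edgeR's two-sided quasi-likelihood test with Benjamini-Hochberg adjusted p over all genes tested, and a gene passed at an adjusted p under 0.05. The study's methods describe a lysate for each mouse, while the lines of the tables carry no animal names, so that libraries could not be tied to animals and p-values measure the spread between these libraries. In bulk tissue, a change of RNA per cell and a change in the number of cells of a type cannot be told apart.

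After IM the ligands of CXCR2 rose steeply in total *ME* RNA and followed different time courses. *Cxcl1* and *Cxcl2* were high at IM3h and IM24h and low at IM72h, whereas *Cxcl5* was highest at IM24h and IM72h. *Cxcl1* and *Cxcl2* were also the members that passed the test in *RiboTag* mRNA, at IM3h, in the pairwise fit but not with all 4 groups in one fit. Markers of cells other than glia were also present in the pulldown. At IM3h smooth muscle markers summed to 1154 to 3019 CPM in *RiboTag* libraries and glial markers to 1259 to 2770. In total *ME* RNA these sums were 8919 to 11700 and 119.0 to 126.3 CPM. Which cells the chemokine RNA came from was not tested.

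*Cxcl1* in total *ME* RNA had 2, 3 and 2 counts in the naïve libraries and 373, 488 and 256 at IM3h. At IM24h it had 149, 301, 380 and 69 counts, and at IM72h 41, 19, 14 and 39. No 2 of these groups overlapped in CPM. With naïve libraries at 3 counts or fewer, the ratio of scaled counts was 169.9 at IM3h (95% counting interval 82.2 to 423.5), 67.5 at IM24h (32.6 to 168.4) and 6.35 at IM72h (2.98 to 16.2), intervals that cover counting error only. The adjusted p of edgeR was 5.07e-07, 0.000315 and 0.00498. Between times, *Cxcl1* fell by 1.32 on the log2 scale from IM3h to IM24h (SE 0.42, edgeR adjusted p = 0.0398) and by 3.39 from IM24h to IM72h (SE 0.51, edgeR adjusted p = 0.000528). The first of these did not pass without IM24h library 1 or any single IM3h library (edgeR adjusted p 0.0611 to 0.150), nor with library totals in place of TMM (0.328).

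*Cxcl2* in total *ME* RNA had 0, 0 and 14 counts in the naïve libraries, 356, 572 and 250 at IM3h, followed by 136, 488, 1262 and 204 at IM24h. The IM72h libraries had 46, 6, 25 and 26 counts. It was higher by 6.50 at IM3h (SE 0.62, edgeR adjusted p = 3.84e-05) and by 6.24 at IM24h (SE 1.07, edgeR adjusted p = 0.00210) on the log2 scale. The IM72h libraries overlapped the naïve ones, with a log2 difference of 1.57 (SE 0.96, edgeR adjusted p = 0.182). These sizes depended on single libraries. Without naïve library 3 every naïve count was 0, the fitted log2 differences were 11.6, 11.8 and 7.45, which are no bounds, and the IM72h difference passed (edgeR adjusted p = 0.0119). Without naïve library 1 the differences at IM3h and IM24h were 5.79 and 5.57. The IM24h difference was 5.45 without IM24h library 3 and 6.845 with library totals. *Cxcl2* ranged from 12.8 to 114.8 CPM among the IM24h libraries, with library 3 highest, and its IM24h and IM3h libraries overlapped (log2 difference -0.19, SE 0.59, edgeR adjusted p = 0.836). From IM24h to IM72h it fell by 4.71 (SE 0.74, edgeR adjusted p = 0.000629), and by 3.91 without IM24h library 3.

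*Cxcl5* in total *ME* RNA had 0, 2 and 1 counts in the naïve libraries and 103, 105 and 77 at IM3h. At IM24h it had 649, 570, 588 and 176 counts, and at IM72h 1068, 575, 597 and 891. The naïve, IM3h and later libraries did not overlap, while IM24h and IM72h did. Against naïve mice the ratio of scaled counts was 101.1 at IM3h (95% counting interval 34.3 to 493.4), 347.4 at IM24h (118.7 to 1686) and 410.7 at IM72h (140.4 to 1992), with an edgeR adjusted p of 1.23e-05, 6.24e-05 and 7.59e-07. These ratios rest on 3 naïve counts in all, and leaving out naïve library 1 or 2 moved the fitted log2 difference at IM3h from 6.51 to 5.81 or 7.57. At IM24h it moved from 8.24 to 7.56 or 9.32, and at IM72h from 8.55 to 7.88 or 9.67. *Cxcl5* rose by 1.79 on the log2 scale from IM3h to IM24h (SE 0.34, edgeR adjusted p = 0.00399; 2.59 with library totals), and the difference from IM24h to IM72h was 0.26 (SE 0.33, edgeR adjusted p = 0.568).

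**Figure D2:**
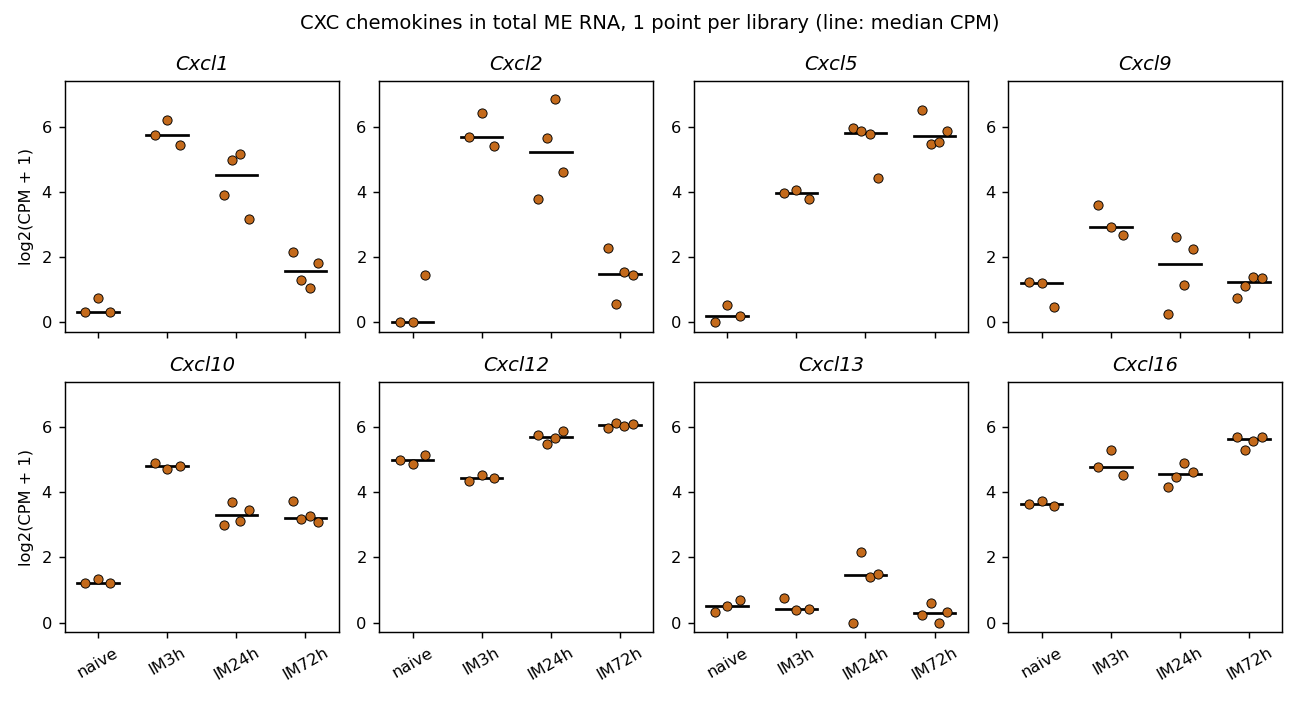
Levels of the 8 chemokine genes in total *ME* RNA by group, with 1 point per library, on an axis of log2(CPM + 1); lines mark the median CPM of the group. *Cxcl1* and *Cxcl2* are low again at IM72h, *Cxcl5* stays between 43.2 and 89.6 CPM there, and *Cxcl12* dips at IM3h before it rises.

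In *RiboTag* mRNA, *Cxcl1* had 7, 4 and 1 counts in the naïve libraries and 103, 190, 90 and 228 at IM3h. It had 21, 0, 0 and 25 counts at IM24h and 0 in every library at IM72h. The IM3h libraries lay above all others. *Cxcl1* was 0.484 ± 0.384 CPM in naïve mice (SD, n = 3) and 14.4 ± 6.26 CPM at IM3h (SD, n = 4), a log2 difference of 4.93 (SE 0.76, edgeR adjusted p = 0.00153), and 5.66 without naïve library 1. With all 4 groups in one fit, which share 1 estimate of the spread, the difference was 4.84 and did not pass (edgeR adjusted p = 0.782). The count of 0 at IM72h allows up to 3 counts per library, or 1.31 to 2.87 CPM, so that a level like that of naïve mice was not detectable there.

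*Cxcl2* in *RiboTag* mRNA had 29, 0 and 0 counts in the naïve libraries and 413, 360, 518 and 544 at IM3h. At IM24h it had 27.9, 23.0, 71.6 and 227 counts and at IM72h 0, 0, 0 and 112. The IM3h libraries did not overlap the naïve ones, and *Cxcl2* was higher by 5.25 on the log2 scale (SE 1.02, edgeR adjusted p = 0.00602), a difference of 5.16 that did not pass with all 4 groups in one fit (edgeR adjusted p = 0.715). Without naïve library 1 the other naïve libraries were at 0 and the fitted difference was 11.8. At IM24h the log2 difference was 4.17 (SE 1.69, edgeR adjusted p = 0.287), with libraries that overlapped those of naïve mice.

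*Cxcl5* in *RiboTag* mRNA had 11, 0 and 0 counts in naïve mice and 69, 83, 5 and 227 at IM3h. At IM24h it had 40, 1, 0 and 99 counts and at IM72h 0, 1, 1 and 0. One IM3h library fell below naïve library 1, and the log2 difference at IM3h was 4.27 (SE 1.47, edgeR adjusted p = 0.0781). It passed in DESeq2 (adjusted p = 0.00785) and without naïve library 1 (edgeR adjusted p = 0.0306), where every naïve count left was 0 and the fitted difference of 9.47 is no bound.

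**Figure D3:**
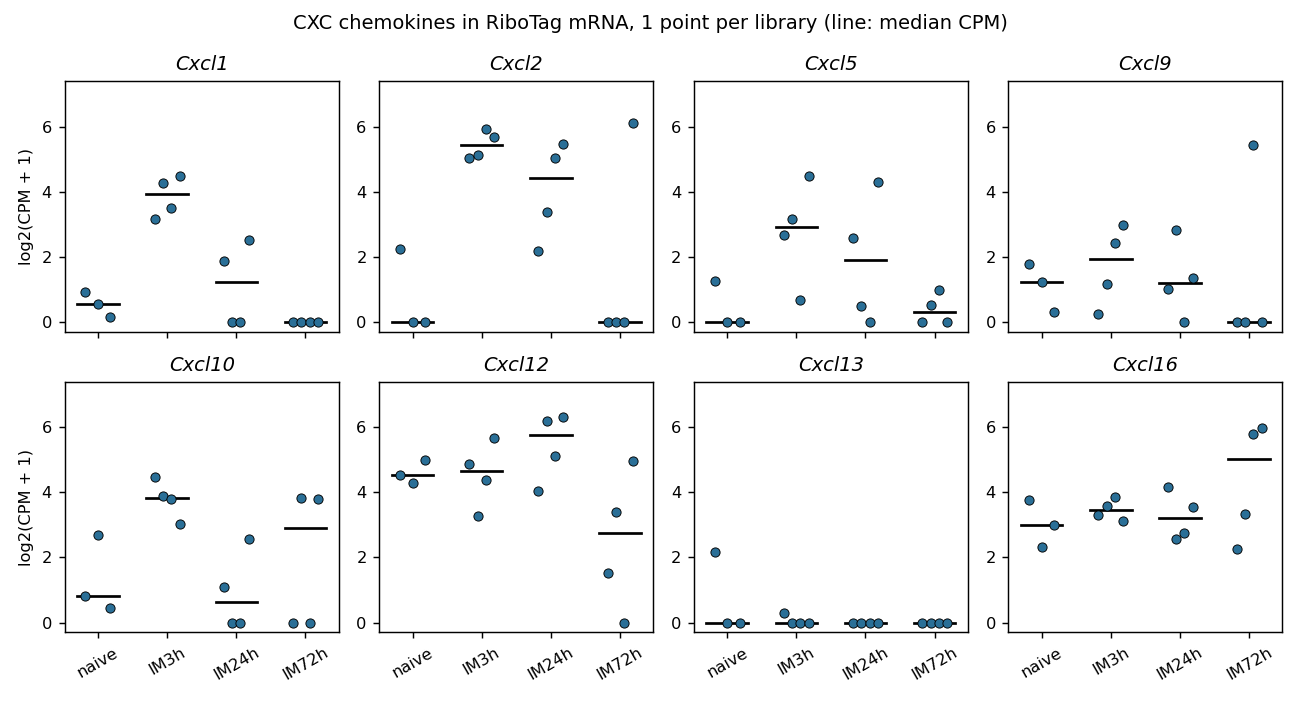
Levels of the 8 chemokine genes in *RiboTag* mRNA by group, with 1 point per library, on an axis of log2(CPM + 1); lines mark the median CPM of the group. *Cxcl1*, *Cxcl2* and *Cxcl10* at IM3h sit above every naïve library, and single libraries carry *Cxcl2* (68.6 CPM) and *Cxcl9* (42.0 CPM) at IM72h.

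The interferon-inducible ligands rose in total *ME* RNA at IM3h, and *Cxcl10* stayed raised. *Cxcl10* had 11, 7 and 11 counts in naïve mice and 207, 174 and 164 at IM3h. It had 74.8, 120, 84.7 and 87 counts at IM24h and 148, 107, 115 and 115 at IM72h. All libraries after IM lay above the naïve ones, and those of IM3h above those of IM24h and IM72h. *Cxcl10* was higher than in naïve mice by 4.35 (SE 0.22, edgeR adjusted p = 6.62e-07), 2.72 (SE 0.39, edgeR adjusted p = 0.000820) and 2.69 (SE 0.29, edgeR adjusted p = 2.20e-05) on the log2 scale at IM3h, IM24h and IM72h. At IM72h this was 3.28 with library totals and 2.06 with scaling by the reference genes *Actb*, *Hsp90ab1* and *Rplp1*. It fell by 1.53 from IM3h to IM24h (SE 0.24, edgeR adjusted p = 0.00143), or by 0.74 with library totals (0.0257), and the difference from IM24h to IM72h was -0.04 (SE 0.26, edgeR adjusted p = 0.914).

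In *RiboTag* mRNA, *Cxcl10* had 6, 48 and 3 counts in naïve mice and 278, 145, 111 and 77 at IM3h. At IM24h it had 9, 0, 0 and 26 counts and at IM72h 0, 30, 0 and 21. The IM3h libraries did not overlap the naïve ones, yet the log2 difference of 2.71 (SE 0.83) had an edgeR adjusted p of 0.0511. It passed without naïve library 2, the naïve library with the highest value (log2 difference 4.68, edgeR adjusted p = 0.00603), without IM3h library 4 (2.91, 0.0262) and in DESeq2 (adjusted p = 0.00707).

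*Cxcl9* in total *ME* RNA had 11, 6 and 3 counts in naïve mice and 78, 44 and 32 at IM3h, higher by 3.02 on the log2 scale (SE 0.51, edgeR adjusted p = 0.00152). It had 2, 51, 13 and 32 counts at IM24h and 8, 15, 21 and 24 at IM72h. Both later groups overlapped the naïve libraries, with log2 differences of 1.36 (SE 1.003, edgeR adjusted p = 0.336) and 0.34 (SE 0.52, edgeR adjusted p = 0.596). In *RiboTag* mRNA *Cxcl9* had 19, 12 and 2 counts in naïve mice and 2.29, 13, 37.8 and 73 at IM3h, and the groups overlapped (log2 difference 1.29, SE 1.32, edgeR adjusted p = 0.602). Its IM72h value came from 1 library with 44 counts beside 3 at 0.

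*Cxcl12* was lower in total *ME* RNA at IM3h and higher afterwards. It had 256, 131 and 284 counts in naïve mice, 139, 151 and 124 at IM3h, followed by 563, 439, 554 and 510 at IM24h. The IM72h libraries had 744, 917, 852 and 1055 counts. In CPM no 2 of these groups overlapped, with IM72h highest (66.0 CPM), then IM24h (51.4 CPM), naïve mice (31.1 CPM) and IM3h (20.8 CPM). *Cxcl12* fell by 0.54 on the log2 scale at IM3h (SE 0.14, edgeR adjusted p = 0.0168), which did not pass without IM3h library 1 (edgeR adjusted p = 0.0519) or without naïve library 3 (0.0549). It was higher than in naïve mice by 0.72 at IM24h (SE 0.17, edgeR adjusted p = 0.00976) and by 1.05 at IM72h (SE 0.12, edgeR adjusted p = 2.62e-05). The IM72h difference depended on the scaling, at 1.64 with library totals (edgeR adjusted p = 5.38e-06) and 0.45 with the 3 reference genes (0.0474). The IM24h difference did not pass without naïve library 1 or 2 (edgeR adjusted p 0.0566 and 0.0560), or with these 3 reference genes (log2 difference 0.38, edgeR adjusted p = 0.461). With library totals it was 1.35 (edgeR adjusted p = 0.000516). From IM3h to IM24h *Cxcl12* rose by 1.35 (SE 0.17, edgeR adjusted p = 0.000520), or by 2.15 with library totals, and the difference of 0.33 from IM24h to IM72h had an edgeR adjusted p of 0.0648 (SE 0.13). The sum of 4 fibroblast markers was 1536 to 1648 CPM in naïve mice, 779.3 to 869.0 at IM3h, 780.3 to 1822 at IM24h and 2850 to 3326 at IM72h. Like *Cxcl12*, this sum was lower at IM3h and higher at IM72h than in naïve mice. At IM24h, where *Cxcl12* was higher than in naïve mice, the median of the sum was 977.1 CPM against 1546. The part of fibroblasts in the level of *Cxcl12* was not tested.

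In *RiboTag* mRNA *Cxcl12* had 176, 164 and 263 counts in naïve mice, 372, 91, 170 and 537 at IM3h, followed by 125, 177, 77 and 415 at IM24h. The IM72h libraries had 4, 22, 0 and 49 counts. All neighbouring groups in the order of levels overlapped, and the edgeR adjusted p against naïve mice was 0.833, 0.486 and 0.827.

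*Cxcl16* rose at every time in total *ME* RNA. It had 96, 58 and 91 counts in naïve mice, 188, 262 and 133 at IM3h, followed by 182, 214, 315 and 208 at IM24h. The IM72h libraries had 607, 514, 628 and 784 counts. Every library after IM lay above the naïve ones in CPM, and the IM72h libraries lay above all others, the lowest of them (38.61 CPM) next to the highest of IM3h (38.59 CPM). The log2 difference to naïve mice was 1.37 (SE 0.22, edgeR adjusted p = 0.00101), 0.96 (SE 0.23, edgeR adjusted p = 0.0103) and 1.98 (SE 0.15, edgeR adjusted p = 1.99e-06). At IM72h it was 2.58 with library totals and 1.38 with the 3 reference genes (edgeR adjusted p = 2.63e-07 and 8.06e-05). The IM24h difference did not pass without naïve library 1 or 3 (edgeR adjusted p 0.0515 and 0.0538), nor with scaling by the 3 reference genes (0.269). With library totals it was 1.60 (edgeR adjusted p = 0.000498). *Cxcl16* rose by 1.01 from IM24h to IM72h (SE 0.18, edgeR adjusted p = 0.00128), a difference that with the reference genes was 0.76 (edgeR adjusted p = 0.0990). In *RiboTag* mRNA it had 99, 36 and 59 counts in naïve mice, 115, 117, 117 and 82 at IM3h, followed by 136, 12, 13 and 56 at IM24h. The IM72h libraries had 8, 21, 57 and 102 counts. These groups overlapped, and the edgeR adjusted p against naïve mice was 0.647, 0.937 and 0.517.

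*Cxcl13* was near the limit of detection. In total *ME* RNA it had 2, 2 and 5 counts in naïve mice, 5, 2 and 2 at IM3h, followed by 0, 35, 18 and 16 at IM24h. The IM72h libraries had 2, 7, 0 and 4 counts. The IM24h libraries other than library 1, which was at 0, lay above every other library, and the log2 difference to naïve mice was 1.995 (SE 1.201, edgeR adjusted p = 0.239). Without IM24h library 1 it passed (log2 difference 2.41, edgeR adjusted p = 0.0403). In *RiboTag* mRNA it had 28, 0 and 0 counts in naïve mice, 3, 0, 0 and 0 at IM3h, and 0 in all libraries at IM24h and IM72h. It passed the filter on low counts in no comparison of *RiboTag* libraries.

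**Figure D4:**
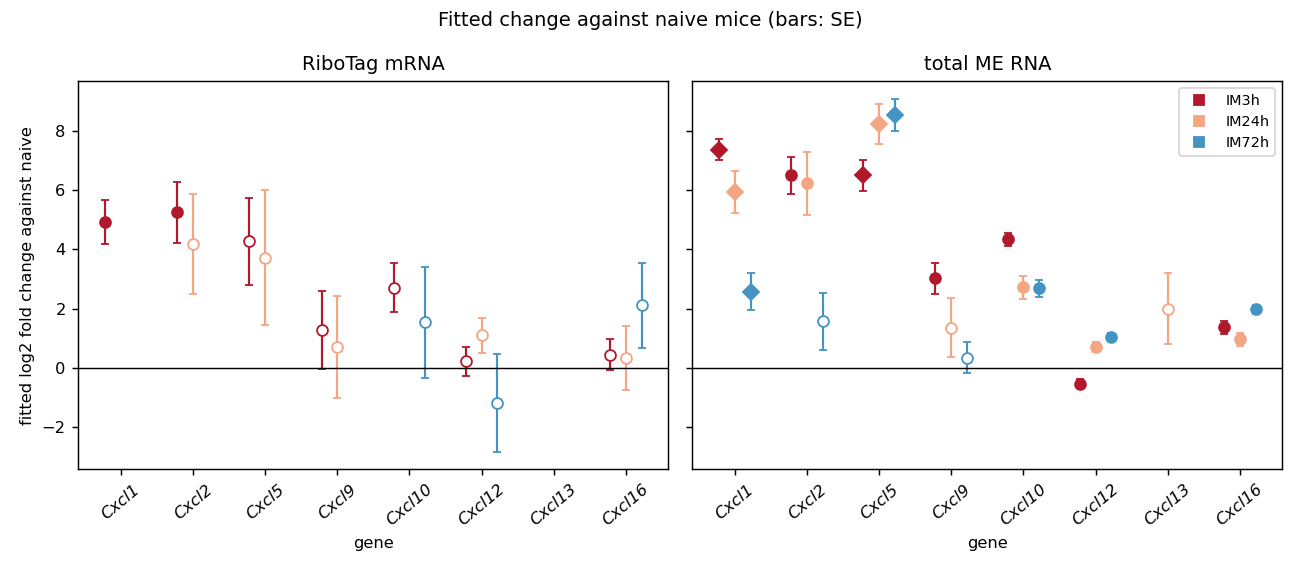
Fitted log2 fold change against naïve mice at IM3h (red), IM24h (light orange) and IM72h (blue) in *RiboTag* mRNA and total *ME* RNA, for members that passed the filter on low counts, with bars of SE. Filled symbols have an adjusted p under 0.05, and diamonds mark *Cxcl1* and *Cxcl5* in total *ME* RNA, whose naïve libraries hold 3 counts or fewer. At IM3h 7 of 7 members are filled in total *ME* RNA (32.7% of all genes in either direction) and 2 of 7 in *RiboTag* mRNA (13.3%).

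Counted over the members, total *ME* RNA at IM3h had 6 higher and 1 lower of the 7 that passed the filter, where 19.3% of all genes tested were higher and 13.4% lower. At IM24h 6 of 8 were higher (15.6% of all genes), and at IM72h 5 of 7 (29.3%). The median log2 difference of the members tested was 4.35, 2.36 and 1.98 at the 3 times, where the median over all genes tested was at most 0.02. From IM3h to IM24h 2 of 8 members rose (14.2% of all genes) and 2 fell (13.4%), and from IM24h to IM72h 1 of 7 rose (18.6%) and 2 fell (19.9%), shares near those of all genes.

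In *RiboTag* mRNA at IM3h 2 of 7 members tested were higher, where 8.86% of all genes were, and the median log2 difference of the members was 2.71 against -0.04 over all genes. At the study's threshold, an unadjusted p under 0.05 with a change of over 2-fold, 4 of 7 were higher (11.8% of all genes). Fitted with all 4 groups together, neither *Cxcl1* nor *Cxcl2* passed. That fit called 22 genes higher and 12 lower of 17930, where the pairwise fit called 1422 and 712 of 16053. At IM24h 0 of 5 members passed edgeR's test (0.497% of all genes in either direction), 1 member, *Cxcl2*, had an unadjusted p under 0.05 (13.2% of all genes) and passed the study's threshold, higher (6.62%), and DESeq2 called 0. At IM72h 0 of 3 passed (16.1% of all genes in either direction), with 0 at an unadjusted p under 0.05 (22.6% of all genes) and 0 by DESeq2. From IM3h to IM24h 0 of 7 passed in edgeR (1.9% of all genes), 2 had an unadjusted p under 0.05 (15.4% of all genes), *Cxcl1* and *Cxcl10*, both lower, and DESeq2 called 1, *Cxcl10*. Both also passed the study's own threshold, as 7.24% of all genes did in that direction. From IM24h to IM72h edgeR called 0 of 3, as it did 0 of all 9344 genes tested (0%), with 0 members and 590 genes (6.31%) at an unadjusted p under 0.05 and 0 members by DESeq2.

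Whether the change differed between the fractions was tested as the interaction of fraction and treatment. If the labels hold, fraction and mouse line cannot be told apart at IM3h, and at IM24h and IM72h the line changes with time in total *ME* RNA alone. Input RNA was taken from cleared lysate, and the fit treats every library as a separate sample because pulldown and input libraries could not be matched. At IM3h it was called in edgeR for 0 of 7 members (1.66% of all genes), with 1 at an unadjusted p under 0.05 (14.7% of all genes) and 0 by DESeq2. That member was *Cxcl1*, whose change was smaller in *RiboTag* mRNA by 2.31 on the log2 scale (SE 0.87, edgeR adjusted p = 0.214). For *Cxcl2* the difference was -1.18 (SE 1.43, edgeR adjusted p = 0.797) and for *Cxcl10* -1.54 (SE 0.92, edgeR adjusted p = 0.487). Both changed sign with 1 naïve *RiboTag* library left out, to 5.28 for *Cxcl2* without library 1 and 0.40 for *Cxcl10* without library 2 (edgeR adjusted p = 0.320 and 0.853). At IM24h 0 of 8 were called (0.537% of all genes), with 1 at an unadjusted p under 0.05, *Cxcl13* (13.5% of all genes), and 0 by DESeq2. At IM72h 1 of 6 was called, *Cxcl5*, with a smaller change in *RiboTag* mRNA (21.1% of all genes were called in that direction), a share of members near that of all genes. The median of this interaction over all genes was -0.98 on the log2 scale, with 3488 genes lower and 355 higher of 16527. The call of *Cxcl5* rested on *RiboTag* naïve library 1, without which the edgeR adjusted p was 0.958.

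Of the receptors, 3 of the 6 tested in total *ME* RNA were higher at IM24h (15.6% of all genes) and 3 of 6 at IM72h (29.3%). *Cxcr2*, the receptor for CXCL1, CXCL2 and CXCL5, went from 0.161 ± 0.185 CPM in naïve mice (SD, n = 3) to 9.81 ± 8.07 CPM at IM24h (SD, n = 4, edgeR adjusted p = 0.00318) and 1.37 ± 0.652 CPM at IM72h (SD, n = 4, edgeR adjusted p = 0.00735). *Cxcr6*, the receptor for CXCL16, was 0.273 ± 0.0784 CPM in naïve mice (SD, n = 3), 2.16 ± 0.881 at IM24h (SD, n = 4, edgeR adjusted p = 0.0213) and 2.13 ± 0.407 at IM72h (SD, n = 4, edgeR adjusted p = 0.000381). *Ackr3*, the scavenger receptor for CXCL12, passed at IM24h (log2 difference 1.46, edgeR adjusted p = 0.00222), and *Cxcr4* at IM72h (2.66, edgeR adjusted p = 0.000744). At IM3h 0 of 3 passed in total *ME* RNA in edgeR (32.7% of all genes in either direction), with 1 at an unadjusted p under 0.05 (43.7%) and 0 by DESeq2. In *RiboTag* mRNA none of the receptors tested against naïve mice passed in edgeR (3, 3 and 1 tested at the 3 times), with 0, 1 and 0 at an unadjusted p under 0.05 and 0 by DESeq2. Of all genes, 13.3%, 0.497% and 16.1% passed there in either direction, and 26.8%, 13.2% and 22.6% had an unadjusted p under 0.05.

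Among the other CXC ligands, 1 of 2 tested in total *ME* RNA fell at IM3h (13.4% of all genes), 2 of 4 were higher (15.6%) and 1 lower (13.4%) at IM24h, and 1 of 2 was higher (29.3%) and 1 lower (28.3%) at IM72h. *Cxcl14*, a ligand made by fibroblasts and epithelium, was the lower gene each time, by 1.47, 2.51 and 0.84 on the log2 scale (edgeR adjusted p = 5.34e-05, 0.000103 and 0.000280). *Pf4*, the platelet factor that macrophages also make, was higher by 2.47 at IM24h and 1.75 at IM72h (edgeR adjusted p = 0.000372 and 4.45e-05). *Cxcl3*, a close relative of *Cxcl2*, had 0 counts in every naïve library and 28 to 150 at IM24h (edgeR adjusted p = 0.00167). The *Cxcl1*, *Cxcl2* and *Cxcl3* sequences are alike, and whether reads were shared among them was not tested. In *RiboTag* mRNA 0 of these ligands passed against naïve mice in edgeR (3, 3 and 4 tested, where 13.3%, 0.497% and 16.1% of all genes passed), with 0, 1 and 0 at an unadjusted p under 0.05 (26.8%, 13.2% and 22.6% of all genes) and 0 by DESeq2.

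NF-κB drives *Cxcl1* and *Cxcl2* in many cells. Of the genes that encode its subunits, or that induce or restrain it, 11 of 11 tested were higher in total *ME* RNA at IM3h (19.3% of all genes). At IM24h 8 of 11 were higher (15.6%) and at IM72h 7 of 10 (29.3%). In *RiboTag* mRNA 5 of 10 were higher at IM3h (8.86% of all genes), *Nfkb1*, *Nfkbia*, *Nfkbiz*, *Rela* and *Zfp36*, and 1 of 9 at IM24h (0.366%), *Nfkbia*. *Nfkbia*, which encodes the inhibitor IκBα, was higher at IM3h by 4.03 in *RiboTag* mRNA (edgeR adjusted p = 7.22e-05) and by 3.36 in total *ME* RNA (edgeR adjusted p = 2.17e-06) on the log2 scale. At IM72h 0 of 7 passed in *RiboTag* mRNA in edgeR (16.1% of all genes), with 1 at an unadjusted p under 0.05 (22.6%) and 0 by DESeq2. *Il1b*, the cytokine interleukin-1β, was higher in total *ME* RNA at all 3 times, by 4.56, 6.17 and 3.29 (edgeR adjusted p = 0.000103, 0.000723 and 0.000517).

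Of the interferon-γ axis, which induces *Cxcl9* and *Cxcl10*, 7 of 10 genes tested were higher in total *ME* RNA at IM3h (19.3% of all genes), 5 of 10 at IM24h (15.6%), and 6 of 10 at IM72h (29.3%) with 2 lower (28.3%). In *RiboTag* mRNA 3 of 10 were higher at IM3h (8.86% of all genes), *Irf1*, *Gbp2* and *Gbp5*. *Irf1*, an interferon regulatory factor, was higher there by 1.44 (edgeR adjusted p = 0.00218) and in total *ME* RNA by 2.498, 1.28 and 1.58 on the log2 scale at the 3 times (edgeR adjusted p = 1.45e-05, 0.00141 and 2.76e-05). *Ifng* itself passed the filter in no comparison with naïve mice. At IM24h 0 of 9 passed in *RiboTag* mRNA in edgeR (0.497% of all genes), with 1 at an unadjusted p under 0.05 (13.2%) and 0 by DESeq2, and at IM72h 1 of 9 was lower, a share near that of all genes (15.1%).

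The lymphotoxin axis, which drives *Cxcl13* in lymphoid tissue, had 2 of 5 genes higher at IM3h in total *ME* RNA (19.3% of all genes), 2 of 6 higher (15.6%) with *Ltbr* lower (13.4%) at IM24h, and 3 of 6 higher at IM72h (29.3%). *Ltb*, a lymphotoxin subunit with at most 1 count in a naïve library, was 2.51 CPM at IM24h and 1.30 CPM at IM72h (edgeR adjusted p = 0.0216 and 0.00187). In *RiboTag* mRNA *Ltbr*, the lymphotoxin β receptor, was the 1 of 4 that passed at IM3h, lower as were 4.44% of all genes (log2 difference -1.26, edgeR adjusted p = 0.0103). Of the proteases that process CXC chemokines, 1 of 6 was higher and 1 lower in total *ME* RNA at IM3h (19.3% and 13.4% of all genes), 3 of 6 higher and 1 lower at IM24h (15.6% and 13.4%), and 2 of 5 higher and 1 lower at IM72h (29.3% and 28.3%), shares near those of all genes at IM3h and IM72h. *Adam10*, the sheddase of CXCL16, passed in total *ME* RNA at IM24h (log2 difference 0.96, edgeR adjusted p = 0.00207), and *Dpp4*, which trims several CXC chemokines, was lower at IM24h and IM72h (-1.66 and -1.32, edgeR adjusted p = 0.0355 and 0.00468). In *RiboTag* mRNA 2 of 4 proteases were lower at IM72h (15.1% of all genes). *Dpp4*, *Mmp9* and *Mmp2* had 0 counts in every library there. With 3 counts at 1.31 to 2.87 CPM in these libraries, a low level was not detectable.

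Marker genes of the cell types in the *ME* were summed in each library. Counts of markers called in total *ME* RNA stand against 19.3%, 15.6% and 29.3% of all genes higher and 13.4%, 13.4% and 28.3% lower at IM3h, IM24h and IM72h. The summed level of the 4 of 5 neutrophil markers in the tables was in total *ME* RNA 0.484 to 0.860 CPM in naïve mice, 19.6 to 28.6 at IM3h, 41.5 to 193.9 at IM24h and 18.6 to 53.7 at IM72h, with 2 of 2, 3 of 3 and 4 of 4 tested markers higher. In *RiboTag* mRNA the same sum was 0 to 3.12 CPM in naïve mice, 2.39 to 10.7 at IM3h, 0.437 to 44.0 at IM24h and 0.607 to 70.9 at IM72h, with *S100a8* at 0 in naïve mice and at IM72h and *Retnlg* at 0 in naïve mice. The 5 macrophage markers summed to 119.0 to 129.9 CPM in naïve total *ME* RNA, 83.4 to 98.8 at IM3h, 273.4 to 377.1 at IM24h and 672.2 to 908.1 at IM72h, with 1 of 5 higher and 2 lower at IM3h, 3 higher at IM24h and 5 at IM72h, the IM3h share of higher markers being near that of all genes. In *RiboTag* mRNA they summed to 68.4 to 138.0 CPM in naïve mice, 46.9 to 106.5 at IM3h, 115.7 to 220.7 at IM24h and 217.4 to 389.7 at IM72h, with *Cd68* at 0 in naïve mice and at IM72h. The 4 smooth muscle markers summed in total *ME* RNA to 11050 to 12390 CPM in naïve mice, 8919 to 11700 at IM3h, 1457 to 6113 at IM24h, where 3 were lower, and 6006 to 11760 at IM72h, where 1 was lower. In *RiboTag* mRNA they summed to 2872 to 4429 CPM in naïve mice, 1154 to 3019 at IM3h, 619.0 to 1563 at IM24h and 1568 to 5326 at IM72h, with 2, 3 and 1 of them lower. Of all genes in *RiboTag* mRNA 4.44% were lower at IM3h, 20 of 15304 at IM24h and 15.1% at IM72h. The 3 mesothelial markers went in total *ME* RNA from 81.6 to 117.2 CPM in naïve mice to 1.33 to 10.7 at IM3h, 5.43 to 64.1 at IM24h and 25.7 to 65.6 at IM72h, with 3, 1 and 3 of them lower. In *RiboTag* mRNA they summed to 70.3 to 177.5 CPM in naïve mice, 5.51 to 60.3 at IM3h, 0 to 82.2 at IM24h and 0 to 52.5 at IM72h, with 2, 0 and 1 of 3 lower in edgeR. At IM24h 1 of them had an unadjusted p under 0.05 (13.2% of all genes). DESeq2 called 1 there, where it called 492 genes higher and 366 lower of 15304. Of the 4 fibroblast markers 3 were lower at IM3h in total *ME* RNA, at IM24h there was 1 in each direction, and by IM72h 2 had risen. In *RiboTag* mRNA these went from 387.2 to 477.2 CPM in naïve mice to 154.0 to 218.8 at IM3h, where 2 of 4 were lower. The 2 markers of interstitial cells of Cajal, the pacemaker cells of the gut, summed in total *ME* RNA to 212.1 to 222.7 CPM in naïve mice, 151.8 to 156.3 at IM3h, 122.4 to 236.8 at IM24h and 76.9 to 92.1 at IM72h, with both lower at IM3h and IM72h. In *RiboTag* mRNA they summed to 86.8 to 121.2 CPM in naïve mice and 23.7 to 47.4 at IM3h, where 1 was lower. The 4 neuronal markers summed to 385.6 to 394.1 CPM in naïve total *ME* RNA, 311.2 to 357.8 at IM3h, 198.6 to 302.2 at IM24h, where 1 was lower, and 301.0 to 417.5 at IM72h, where 1 was higher and 1 lower. In *RiboTag* mRNA they summed to 361.3 to 725.7 CPM in naïve mice and 461.3 to 1073 at IM3h, where 1 was higher (8.86% of all genes). At IM24h and IM72h these sums were 264.8 to 659.3 and 92.65 to 413.3 CPM. Glial markers summed to 1259 to 2770 CPM in naïve and IM3h *RiboTag* libraries and to 105.5 to 126.4 CPM in the same groups of total *ME* RNA, and to 765.6 to 850.5 and 145.7 to 1445 CPM in *RiboTag* libraries of IM24h and IM72h. In total *ME* RNA they summed to 94.3 to 128.0 CPM at IM24h and 160.5 to 302.3 at IM72h, where 4 of 5 were higher and 1 lower, with 2 higher and 2 lower at IM3h and 1 of each at IM24h. The 4 endothelial markers summed in total *ME* RNA to 27.3 to 29.2 CPM in naïve mice, 36.3 to 46.4 at IM3h, 43.6 to 59.7 at IM24h and 52.7 to 67.7 at IM72h, with 1, 2 and 3 of them higher. In *RiboTag* mRNA they summed to 15.4 to 32.1 CPM in naïve mice, 14.2 to 33.9 at IM3h and 28.4 to 79.3 at IM24h. At IM72h the sum was 0 to 60.0 CPM, with *Kdr* at 0 and 2 of 3 tested lower (15.1% of all genes). The 4 T cell markers summed in total *ME* RNA to 1.45 to 2.78 CPM in naïve mice, 0.830 to 2.21 at IM3h, 1.49 to 3.397 at IM24h and 4.81 to 6.91 at IM72h, where 3 of 4 were higher, and at the earlier times 0 of them passed the filter on low counts. The 3 B cell markers summed to at most 2.18 CPM in any library of total *ME* RNA. The part of these cells in the chemokine levels was not tested.

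The 2 genes whose log2 CPM was most like that of a member, by Pearson's r over the 14 total *ME* libraries among 17919 genes, were *Ccdc86* (0.98) and *Mt2* (0.97) for *Cxcl1*, *Il6* (0.97) and *Mob3c* (0.96) for *Cxcl2*, and *Actr3* (0.98) and *Il1r2* (0.97) for *Cxcl5*. They were *Por* (0.98) and *Rela* (0.97) for *Cxcl10*, *Tmem35b* (0.98) and *Cul7* (0.98) for *Cxcl12*, and *Gon7* (0.97) and *Isg15* (0.95) for *Cxcl16*. For the sparse *Cxcl9* they were *Ing2* (0.87) and *G530011O06Rik* (0.84), and for *Cxcl13* *Actr6* (0.93) and *Gm19801* (0.87). In the 15 *RiboTag* libraries, among 17930 genes, they were *Gm6457* (0.97) and *Cdt1* (0.97) for *Cxcl1*, *Tpm3-rs7* (0.90) and *Eid3* (0.89) for *Cxcl2*, and *Gm5424* (0.91) and *Ripk3* (0.91) for *Cxcl5*. For *Cxcl10* they were *Mrpl47* (0.91) and *Utp18* (0.90), for *Cxcl12* *Eif2b5* (0.92) and *Nagk* (0.91), and for *Cxcl16* *Gm10657* (0.93) and *4930562F17Rik* (0.89), while *Cxcl13* did not pass the filter. All points share the group structure and the depth of their libraries.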

How the data were processed

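RNA of the small bowel *ME* was sequenced by the authors from 3′ end libraries as single-end reads. The submitters' processing notes name cutadapt, STAR, Partek and mm10. The deposited tables hold the authors' estimated counts per transcript (*RiboTag*, and total *ME* RNA) or per gene (total *ME* RNA), without scaling for library size, and list features with a total of at least 10. Deposited tables of the authors' own comparisons with naïve mice (p-values, fold changes, group means) were not used.

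Groups were read from the entry each table line carries; line names match no sample label, so libraries were numbered by sorted name within a group. Transcripts were summed to genes by symbol, rounded, and tested pairwise in edgeR 4.0.16 (R 4.3.3, limma 3.58.1; filterByExpr, TMM), tested on simulated data first. Log2 CPM used a prior count of 2. Alternatives included DESeq2 1.42.0, other scalings, no filter, all groups in one fit, and each library left out. The text names the 8 members, gives gene lists as counts with values for any gene named, and names the 2 genes with the highest correlation of log2 CPM to each member (for *Cxcl9* in *RiboTag* mRNA these are not reported here). Members and lists were chosen with earlier results of these data known. Positions are from GENCODE (mm10), promoters from RefSeq (GRCm38.p6).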

Additional observations from a re-analysis of the deposited data

Results flagged for a closer look

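Of 37 groups of 4 libraries with values above 0, 3 held a library far from the other 3, by the gap to its neighbour relative to the range. Each of these 3 groups holds 1 value above 0 beside 3 libraries at 0, which by itself puts the ratio at its maximum, so the rate of about 1 in 20 that chance gives for continuous values does not apply to them. *Cxcl2* at IM72h in *RiboTag* mRNA was 68.6 CPM in 1 library and 0 in the others. *Cxcl9* at IM72h in *RiboTag* mRNA was 42.0 CPM in 1 library and 0 in the others. *Cxcl13* at IM3h in *RiboTag* mRNA was 0.231 CPM, 3 counts, in 1 library and 0 in the others.

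The change of *Cxcl5* from naïve mice to IM72h differed between the fractions in the test of the interaction of fraction and treatment, with a fitted log2 difference of -9.20 for *RiboTag* mRNA minus total *ME* RNA (SE 2.17, edgeR quasi-likelihood test, Benjamini-Hochberg adjusted p = 0.00660). The IM72h *RiboTag* libraries held 0, 1, 1 and 0 counts and the naïve *RiboTag* libraries 11, 0 and 0, so the size is no bound. Without *RiboTag* naïve library 1 the fitted difference was -4.15 (edgeR adjusted p = 0.958). Of all genes tested 21.1% were called in that direction, the median over all genes was -0.98, and the 1 of 6 members called is a share near that of all genes.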

How the results depend on the processing

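Over the 13 comparisons, other settings kept the direction and the side of the threshold for 475 values, and 21 changed direction, 8 gained and 6 lost significance. With 1 library left out the numbers were 663, 35, 8 and 11. The cause was not tested. The count of members called in *RiboTag* mRNA at IM3h was 4 with DESeq2, 4 without a filter, 4 at the study's threshold (unadjusted p under 0.05 and over 2-fold) and 0 with all groups in one fit. Of all genes, DESeq2 called 1930 higher and 1168 lower of 16053, and the fit without a filter 1541 and 715 of 22666. At the study's threshold 11.8% were higher, and the fit of all groups called 22 higher and 12 lower of 17930. The member count in *RiboTag* mRNA at IM24h was 1 at the study's threshold (6.62% of all genes higher). From IM3h to IM24h the member count was 2 at that threshold (7.24% of all genes lower). With DESeq2 it was 1, where 642 genes were higher and 524 lower of 14193. In total *ME* RNA from IM24h to IM72h the member count was 5 with all groups in one fit, where 3769 genes were higher and 3932 lower of 17919. For the interaction at IM72h the member count was 2 with library totals, where 133 genes were higher and 6976 lower of 16527. It was 2 without a filter, where 491 genes were higher and 3564 lower of 19768, and 0 to 3 with a library left out.

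With library totals in place of TMM, the median log2 change of all genes against naïve mice moved to -0.24, -0.96 and -2.13 in *RiboTag* mRNA and to -0.26, 0.66 and 0.62 in total *ME* RNA at IM3h, IM24h and IM72h, and with the 3 reference genes to -0.45, -1.51 and -2.07, and -0.41, -0.35 and -0.58. The share of higher among called genes in total *ME* RNA then went from 59.0%, 53.9% and 50.9% to 33.9%, 89.7% and 81.2% with totals and to 22.7%, 28.9% and 20.1% with reference genes. In *RiboTag* mRNA at IM3h it went from 66.6% to 51.3% and 44.2%. From IM3h to IM24h in total *ME* RNA the median was 0.84 with totals, with 92.9% of calls higher in place of 51.5%, and from IM24h to IM72h it was -0.22 with reference genes, with 30.3% in place of 48.2%.

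Log2 differences that changed sign against naïve mice in *RiboTag* mRNA were *Cxcl12* at IM3h (-0.031 with totals, -0.38 with reference genes), *Cxcl9* (-0.41, -0.92) and *Cxcl16* (-0.28, -0.64) at IM24h, *Cxcl10* at IM72h (-0.089, -0.28), and *Cxcl12* at IM24h (-0.72 with reference genes). *Cxcl9* at IM72h in total *ME* RNA was -0.24 with reference genes. Between times, *Cxcl12* in *RiboTag* mRNA from IM3h to IM24h was -0.33 with reference genes, *Cxcl2* from IM24h to IM72h 0.20 with DESeq2 or its size factors, and in total *ME* RNA from IM3h to IM24h *Cxcl2* was 0.61 and *Cxcl16* 0.48 with totals, and *Cxcl10* from IM24h to IM72h was 0.023 without a filter. For the interaction, *Cxcl12* at IM24h was -1.30 with totals and -1.10 with reference genes, *Cxcl9* at IM72h -0.36 with totals, and *Cxcl16* at IM72h 0.42 with DESeq2 or its size factors.

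With a library left out, log2 differences that included both signs ranged from -0.28 to 0.51 (*Cxcl12*, *RiboTag* IM3h), -0.10 to 0.81 (*Cxcl16*, *RiboTag* IM24h) and -0.11 to 0.71 (*Cxcl9*, *ME* IM72h) against naïve mice. From IM3h to IM24h they were -2.12 to 0.46 (*Cxcl5*), -1.78 to 0.16 (*Cxcl9*) and -0.48 to 0.18 (*Cxcl16*) in *RiboTag* mRNA and -1.001 to 0.14 (*Cxcl2*) in total *ME* RNA, and from IM24h to IM72h -9.15 to 0.32 (*Cxcl2*, *RiboTag*), -0.018 to 0.40 (*Cxcl5*, *ME*) and -0.23 to 0.13 (*Cxcl10*, *ME*). For the interaction they were -6.48 to 5.28 (*Cxcl2*), -3.19 to 3.003 (*Cxcl5*) and -2.04 to 0.40 (*Cxcl10*) at IM3h, -7.25 to 4.25 (*Cxcl2*), -5.89 to 0.65 (*Cxcl5*) and -1.85 to 0.11 (*Cxcl9*) at IM24h, and -8.27 to 8.20 (*Cxcl2*), -7.02 to 2.90 (*Cxcl9*), -2.004 to 0.60 (*Cxcl10*) and -0.82 to 0.18 (*Cxcl16*) at IM72h.

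No paired analysis was possible because the lines of the tables carry no replicate number that matches the labels. Intervals and floors cover counting error only, and depth limits *RiboTag* mRNA at IM72h most.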
